A study of Mus musculus with 24 samples.

Results

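Genes for the secreted gland products Clu, Spp1, Wfdc2, Wfdc18, Pnliprp1, Ltf and Lcn2 were followed through every array. They were found by name: all 9 probes whose gene name in the scanner files is one of these 7 were taken, with Wfdc18 written there under its older name Expi. All 7 genes passed the filter on dim probes, out of 24717 genes tested in all, and all 9 of their probes passed, out of 35477. The genes were chosen by their names with results of these same arrays already known, and which comparison brought each of them in is not recorded. The log2 ratios and calls of the 7 genes below are therefore a description of these arrays and no independent support for a pattern.

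The tissue was the mouse urogenital sinus (UGS) of C57/Bl6J embryos, the tube from which the prostate buds in males and from which part of the lower urogenital tract forms in females. In the first comparison, female embryos of mothers given 50 mg/kg dihydrotestosterone (DHT) at 16.0 days post conception (dpc) were set against female embryos of vehicle-treated mothers after 6 h, in 4 pairs of RNA pools. The second comparison did the same after 12 h, in 3 pairs. The third set untreated male embryos against their untreated female littermates at 17.5 dpc, in 5 pairs, a point that the labels also call 48 h. Each pool held RNA of different embryos, whose number per pool is not given in the sources used here, and the ducts attached to the UGS were dissected away. Each pair was hybridised on 2 two-colour arrays with the dyes exchanged, 24 arrays in all.

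A level below is the normalised log2 signal of one probe in one pool, and a log2 ratio is that of DHT over vehicle or of male over female, averaged over the 2 arrays of a pair. Levels compare pools for one gene and do not compare genes with each other. A gene is said to be called, or to rise or fall, where limma's moderated test across all 24717 genes gave a Benjamini-Hochberg adjusted p under 0.05. Each hybridisation date held a single comparison, so levels can be compared within a pair, while a difference in level between comparisons cannot be told apart from a difference between dates. Over all genes, the turned log2 ratios of the 2 arrays of a pair correlated at -0.5 to -0.05 at 6 h, -0.197 to 0.163 at 12 h and 0.39 to 0.762 between males and females, so values are given as the mean of both orientations.

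These genes encode products that epithelia release into a lumen or into the tissue around them. Clu encodes clusterin, an extracellular chaperone long known from the regressing prostate of castrated rodents. Spp1 encodes osteopontin, a secreted phosphoprotein that binds integrins and Cd44. Wfdc2 and Wfdc18 encode small secreted proteins with whey acidic protein (WAP) domains, a fold shared with protease inhibitors. Pnliprp1 encodes a relative of pancreatic lipase, Ltf encodes the iron-binding lactoferrin of milk and genital secretions, and Lcn2 encodes a lipocalin that binds bacterial siderophores. DHT is the potent androgen made from testosterone in the UGS, and it acts through the androgen receptor, which is found in UGS mesenchyme before the epithelium expresses it.

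Of the 7 genes, 4 were called between males and females at 17.5 dpc, 1 was called at 6 h of DHT and 0 at 12 h. Clu and Spp1 were higher in males, Wfdc2 and Pnliprp1 were lower in males, and Wfdc18 was higher after 6 h of DHT. Over all genes tested the share called was 7.58% between males and females, 1.63% at 6 h and 0.287% at 12 h. At 12 h none of the 7 genes had an unadjusted limma p under 0.05 either. Of all 24717 genes, 3525 at 6 h, 3479 at 12 h and 4569 between males and females had one. Counts of list genes at that threshold below stand beside these, and small ones are not read as a result. Because the genes were chosen with these results known, nothing is read from the counts against these shares.

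**Figure D1:**
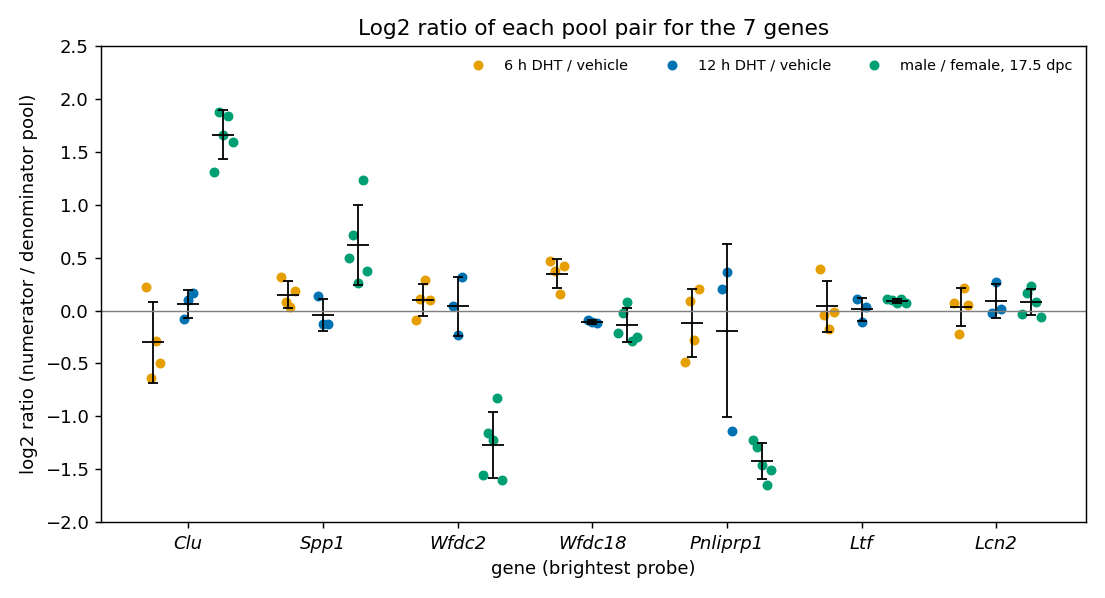
Log2 ratio (y axis) of each pool pair for the 7 genes (x axis), with 4 pairs at 6 h, 3 at 12 h and 5 of males over females. Bars give the mean ± SD over pairs. The male/female pairs of Clu lie between 1.31 and 1.88 and those of Pnliprp1 between -1.65 and -1.22, while the 6 h and 12 h pairs of most genes lie around 0.

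RefSeq's GRCm38.p6 promoter table held a window for 6 of the 7 genes, Clu being the exception. The 250 bases before the start are shown for the 4 of these genes that were called in a comparison, so that the start regions of the genes can be read beside their opposite directions. Capitals mark matches on either strand to a TATA box (TATAAA) or a GC box (GGGCGG). The half-site AGAACA of the androgen receptor was searched in the same way. Wfdc2 lies on the plus strand at chr2:164562465-164562714, Pnliprp1 on the plus strand at chr19:58728637-58728886, Spp1 (the first of its listed starts) on the plus strand at chr5:104434861-104435110 and Wfdc18 on the plus strand at chr11:83708754-83709003.
Wfdc2: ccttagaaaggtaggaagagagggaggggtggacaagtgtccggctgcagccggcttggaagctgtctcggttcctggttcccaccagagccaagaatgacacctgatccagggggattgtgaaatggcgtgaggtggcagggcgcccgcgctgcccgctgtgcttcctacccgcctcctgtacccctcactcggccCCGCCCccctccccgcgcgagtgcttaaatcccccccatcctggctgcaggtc
Pnliprp1: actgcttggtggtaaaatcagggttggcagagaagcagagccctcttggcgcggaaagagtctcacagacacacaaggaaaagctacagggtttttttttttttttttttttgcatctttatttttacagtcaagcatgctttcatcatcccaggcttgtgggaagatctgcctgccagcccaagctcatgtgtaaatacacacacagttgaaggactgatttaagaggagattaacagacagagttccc
Spp1: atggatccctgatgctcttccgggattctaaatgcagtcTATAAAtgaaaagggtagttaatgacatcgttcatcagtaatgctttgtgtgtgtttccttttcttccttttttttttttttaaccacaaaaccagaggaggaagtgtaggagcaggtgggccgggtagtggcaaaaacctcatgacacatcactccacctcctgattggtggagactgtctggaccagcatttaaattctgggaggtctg
Wfdc18: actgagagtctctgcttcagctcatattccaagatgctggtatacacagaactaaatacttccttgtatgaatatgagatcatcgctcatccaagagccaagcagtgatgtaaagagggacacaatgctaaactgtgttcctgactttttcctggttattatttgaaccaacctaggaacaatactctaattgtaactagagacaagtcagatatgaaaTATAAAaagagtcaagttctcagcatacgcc

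The window of Wfdc18 held TATAAA with its first base 31 bases before the start, and that of Spp1 held it 211 bases before the start. The window of Wfdc2 held GGGCGG on the opposite strand, beginning 53 bases before the start, in a sequence with 64.8% G and C. The Pnliprp1 window held neither motif and had 43.6% G and C, against a median of 52.4% over all windows. Among all 32851 windows of this length, 12.4% held TATAAA, 32.7% held GGGCGG and 16.1% held AGAACA. None of the 8 windows listed for the 6 genes held AGAACA or its reverse complement, which says only that these letters are not in these 250 bases.

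Clu was the most raised of the 7 genes in males. The 5 male pools, in the order of their pairs, had levels of 10.33, 10.58, 10.39, 10.60 and 10.02, and their female littermates had 9.02, 8.70, 8.73, 8.76 and 8.43. Every male pool was above every female pool, and all 10 arrays gave a higher signal in males. The log2 ratios of the pairs were 1.31, 1.88, 1.66, 1.84 and 1.59, a mean of 1.66 ± 0.23 (SD, n = 5), or 3.16-fold. With a standard error of 0.10 and limma's adjusted p of 9.15e-07, Clu stood at rank 10 among all genes by the size of its mean rise in males. Of 28 epithelial markers 14 also rose in males and 2 fell, 57.1% of them beside 7.58% of all genes. The mean log2 ratio of the 28 in the 5 pairs was 0.05, 0.24, 0.43, 0.34 and 0.18. It was lowest in replicate 1, as the Clu log2 ratio was, and highest in replicate 3, where Clu had 1.66. The Clu log2 ratio was highest in replicate 2. The part of epithelial share in the Clu difference was not tested.

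No rise of Clu was called within 12 h of DHT. The 3 DHT pools at 12 h had levels of 8.33, 8.34 and 8.46 against 8.40, 8.24 and 8.30 in their vehicle pools. Those groups overlapped, and the mean log2 ratio was 0.06 ± 0.13 (SD, n = 3; limma adjusted p = 0.896). The male/female log2 ratio exceeded the 12 h log2 ratio by 1.59 (SE 0.17), with an adjusted p of 0.000889 by limma's contrast of the comparisons. Of the 28 epithelial markers 27 had a positive mean at 12 h, with a median of 0.26, the same as between males and females. Limma called 0 of them at 12 h, where 13 had an unadjusted p under 0.05, beside 3479 of all 24717 genes.

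At 6 h the DHT pools held Clu within a narrow range and the vehicle pools did not. The DHT pools had levels of 8.23, 8.12, 8.16 and 8.20, and the vehicle pools 8.01, 8.76, 8.45 and 8.70. The vehicle pool of replicate 1 lay below its DHT pool, and those of replicates 2, 3 and 4 lay above theirs, so that the log2 ratios were 0.22, -0.64, -0.29 and -0.50. The mean of -0.30 ± 0.38 (SD, n = 4) was not called (limma adjusted p = 0.239). Leaving out replicate 1 gave -0.48 with an adjusted p of 0.105, and replicate 1 by itself gave 0.22. The mean log2 ratio of the 28 epithelial markers in the 4 pairs was -0.51, -0.41, -0.07 and 0.01. Of the 28, 0 had a positive mean at 6 h, and their part in the Clu values was not tested.

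The vehicle pools of replicates 2, 3 and 4 at 6 h also carried RNA of the Y chromosome. Eif2s3y, a Y-linked translation factor gene, had levels of 8.66, 7.64 and 7.81 in them and 6.02 in the vehicle pool of replicate 1. The 5 female pools at 17.5 dpc had 5.98 to 6.36 and the 5 male pools 8.51 to 9.01. The labels call all these vehicle pools female. Of the other Y-linked genes, Ddx3y had 7.67, 6.80 and 7.01 in replicates 2, 3 and 4 and 5.99 in replicate 1. Kdm5d had 6.65, 6.44 and 6.45 against 6.24. Uty had 6.44, 6.13 and 6.13 against 6.20, where female pools at 17.5 dpc had 5.89 to 6.05. It thus did not set replicate 1 below replicates 3 and 4. Replicate 2, with the lowest Clu log2 ratio, had the lowest Eif2s3y log2 ratio (-2.38), followed by replicate 4 (-1.58) and replicate 3 (-1.25), and replicate 1 had -0.04. Xist, at 11.96 to 12.60 in female and 6.42 to 6.97 in male pools at 17.5 dpc, followed another order. Its 6 h log2 ratios were -0.35, 1.07, 0.22 and -0.13 in replicates 1 to 4. With Clu higher in male than in female pools at 17.5 dpc, these values stand beside its 6 h log2 ratios, and the part of male RNA in them was not tested.

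Over the 12 pairs, the 3 genes with log2 ratios nearest to those of Clu were Gsta3, a glutathione transferase, Calb1, which encodes the calcium-binding calbindin, and Tfcp2l1, a Grainyhead-like transcription factor. The root mean square difference from Clu over the 12 pairs was 0.24 for Gsta3, 0.25 for Calb1 and 0.25 for Tfcp2l1, where Clu itself had a root mean square log2 ratio of 1.11. At 17.5 dpc their mean male/female log2 ratios were 1.61, 1.53 and 1.42. At 6 h all 3 were above 0 in replicate 1 (0.15, 0.39 and 0.24) and below 0 in the other replicates, lowest in replicate 2 (-0.62, -0.87 and -1.03), the order of Clu. As they were chosen for nearness to Clu over these pairs, a shared order follows from the choice.

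**Figure D2:**
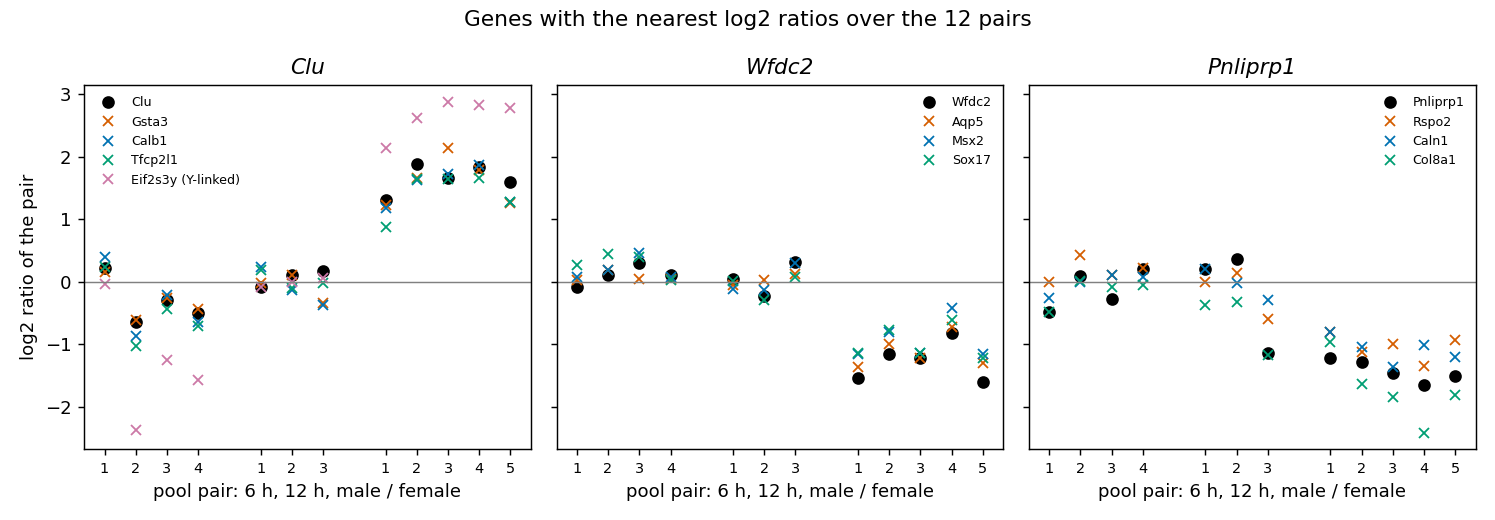
Log2 ratio (y axis) of each of the 12 pool pairs (x axis, numbered by replicate within the 6 h, 12 h and male/female comparisons) for Clu, Wfdc2 and Pnliprp1 (black circles) and the 3 genes nearest to each (crosses), with Eif2s3y beside Clu. Clu, Gsta3, Calb1 and Tfcp2l1 are lowest at 6 h in replicate 2, where Eif2s3y is at -2.38, and Pnliprp1 and Col8a1 are at -1.14 and -1.17 in replicate 3 at 12 h.

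Calb1 is also one of 9 marker genes used for the Wolffian and Mullerian ducts, whose remnants can be attached to the UGS. Of those 9 genes, well above background on 24 of 24 arrays except for Pax8 (21), 2 rose in males and 2 fell. That share of 44.4% stands beside 7.58% of all genes. Calb1 (1.53) and Wnt9b (0.51) were higher in males, and the Mullerian genes Amhr2 (-1.08) and Wnt7a (-0.77) were lower. The duct genes Pax2 (-0.02), Lhx1 (-0.05) and Pax8 (-0.05) were not called. The log2 of the summed duct signal ran from 10.42 to 10.64 in male pools and from 10.27 to 10.60 in female pools, and the part of duct tissue in the Clu difference was not tested.

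The proteins that take up or accompany clusterin showed smaller differences. Of 8 genes for its receptors and for lipid carriers, 1 was higher and 1 was lower in males, with a median log2 ratio of 0.03 against 0.001 over all genes. The share called was 25%, beside 7.58% of all genes. Vldlr, which encodes a lipoprotein receptor, was higher in males in 5 of 5 pairs, with a mean log2 ratio of 0.51 ± 0.07 (SD, n = 5; limma adjusted p = 0.000286). Apoe, a lipid carrier abundant in macrophages, was lower in 5 of 5 pairs (-0.29, adjusted p = 0.017). None of the 8 was called at 6 h or at 12 h by limma, where 1 gene at each time had an unadjusted p under 0.05.

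Spp1 was higher in males by a smaller and more variable amount. Male levels were 9.22, 9.17, 9.14, 9.76 and 9.21, and those of the female littermates 8.72, 8.46, 8.87, 8.53 and 8.84. The groups did not overlap, and the male pool of replicate 4 stood well above the other male pools. In that pair the mean log2 ratio of 15 mesenchymal and smooth muscle markers was -0.66, against -0.32 to -0.04 in the other pairs, and their part in the Spp1 value was not tested. The log2 ratios were 0.50, 0.71, 0.26, 1.23 and 0.37, a mean of 0.62 ± 0.38 (SD, n = 5), or 1.53-fold, with an adjusted p of 0.0023 by limma. Without replicate 4 the mean was 0.46 with an adjusted p of 0.00214, and all 10 arrays gave the same direction. The call ended (adjusted p = 0.07) where the male/female pairs were fitted without the DHT pairs.

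Neither DHT comparison called Spp1. At 6 h the DHT pools had levels of 9.24, 9.29, 9.28 and 9.21 and the vehicle pools 8.92, 9.21, 9.25 and 9.03. All 4 log2 ratios were above 0, but the groups overlapped and the mean of 0.15 ± 0.13 (SD, n = 4) had an adjusted p of 0.679 by limma. At 12 h the log2 ratios were 0.14, -0.13 and -0.13. The male/female log2 ratio of Spp1 exceeded that at 12 h by 0.66, which limma did not call (adjusted p = 0.0828), and that at 6 h by 0.47 (adjusted p = 0.105).

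Macrophages and bone cells are known sources of osteopontin, and their markers are given here beside those of epithelium. All 12 macrophage genes were well above background on 24 of 24 arrays. In males 7 of them fell, 58.3% beside 7.58% of all genes, and 0 rose. Those that fell included Lyz2 (-0.53), C1qc (-0.36) and Adgre1 (-0.31). The log2 of the summed signal of the 12 ran from 11.55 to 11.86 in male pools and from 11.95 to 12.10 in female pools, which did not overlap. Of 6 bone genes measured of 7 listed, limma called none at 17.5 dpc and none had an unadjusted p under 0.05. Sp7, Alpl, Runx2 and Phex were well above background on 24 of 24 arrays, Dmp1 on 21 and Bglap on 19, while Ibsp reached it on 5 and was not tested. Of 28 epithelial markers 14 rose in males and 2 fell, with a median log2 ratio of 0.26. The part of any of these cell types in the Spp1 difference was not tested.

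Osteopontin's receptors and its relatives among the secreted phosphoproteins made a list of 12 measured genes, of which 3 fell and 1 rose in males. That share of 33.3% stands beside 7.58% of all genes. Cd44, a cell surface receptor, was at -0.45 (SD 0.29, n = 5; limma adjusted p = 0.00372) and lower in 5 of 5 pairs. The integrin genes Itga4 (-0.38) and Itga8 (-0.17) were lower and Itga9 (0.15) was higher. At 6 h 1 of the 12 was called, the integrin gene Itgb5, lower with DHT in 4 of 4 pairs at -0.30 ± 0.11 (SD, n = 4; limma adjusted p = 0.00861). Itgb5 was thus 8.33% of the list, beside 1.63% of all genes called at 6 h. Limma called 0 of 12 at 12 h, where 1 had an unadjusted p under 0.05. The genes nearest to Spp1 over the 12 pairs were Emb (embigin, root mean square difference 0.18), Gdf15 (a growth and stress cytokine, 0.21) and Mid1ip1 (0.22), and each had its largest male/female log2 ratio in replicate 4, at 0.99, 0.72 and 0.97, as Spp1, for whose pattern they were chosen, did.

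**Figure D3:**
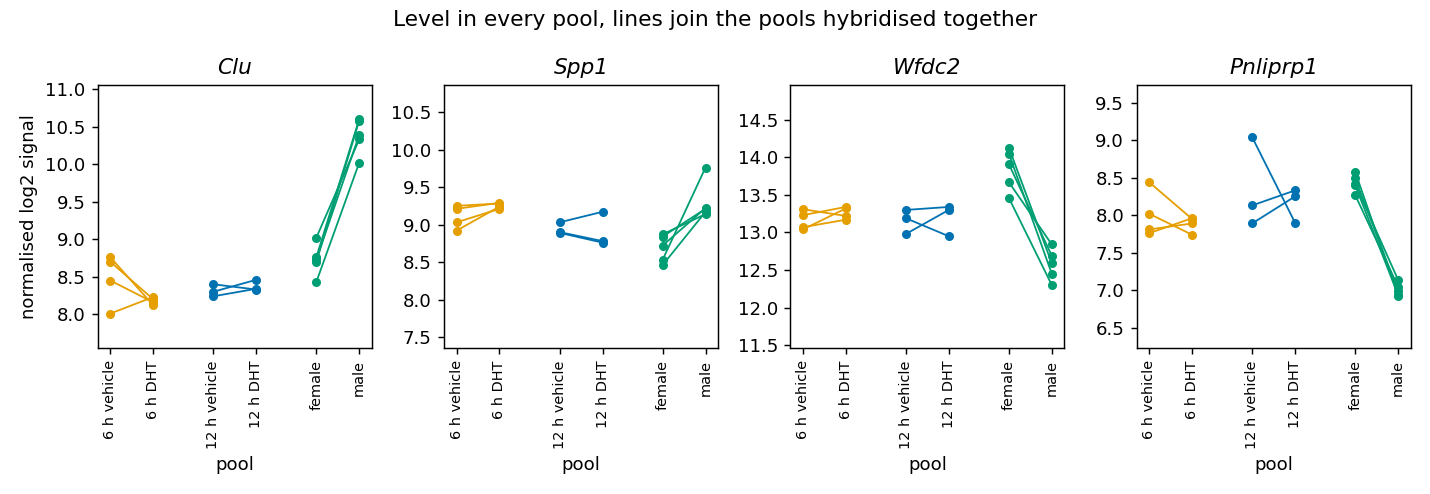
Normalised log2 signal (y axis, spanning the same number of log2 units in each panel) of Clu, Spp1, Wfdc2 and Pnliprp1 in each of the 24 pools (x axis, 6 conditions), where a line joins the 2 pools of a pair. All lines of Clu and Spp1 rise from female to male and all lines of Wfdc2 and Pnliprp1 fall, while the DHT lines go both ways for all but Spp1 at 6 h.

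Wfdc2 went the other way, with less RNA in males. The female pools had levels of 14.13, 13.46, 13.91, 13.67 and 14.05 and their male littermates 12.59, 12.30, 12.69, 12.84 and 12.45. Every female pool was above every male pool, and all 10 arrays gave a lower signal in males. The log2 ratios were -1.55, -1.16, -1.22, -0.83 and -1.60, so Wfdc2 fell by 1.27 ± 0.31 (SD, n = 5) in males, a 2.41-fold difference (limma adjusted p = 4.75e-06). Levels at 6 h and 12 h lay between the 2 sexes: from 13.04 to 13.34 at 6 h and from 12.95 to 13.34 at 12 h, over DHT and vehicle pools alike. That position cannot be told apart from differences in hybridisation date and embryo age.

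DHT left Wfdc2 without a call at either time. At 6 h the log2 ratios were -0.09, 0.11, 0.29 and 0.10, and at 12 h 0.04, -0.23 and 0.32. The 6 h log2 ratio was below 0 in replicate 1 and above 0 in replicates 2, 3 and 4, whose vehicle pools carried Y-linked RNA, and the part of male RNA in these values was not tested. Both means were small beside their spread, 0.10 ± 0.15 (SD, n = 4; limma adjusted p = 0.829) and 0.04 ± 0.28 (SD, n = 3; limma adjusted p = 0.933). The male/female log2 ratio was below that at 12 h by a called difference (-1.31, SE 0.16, adjusted p = 0.00196 by limma) and below that at 6 h by -1.37 (adjusted p = 0.00018).

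Wfdc2 is known as an epithelial gene. Of 28 epithelial markers in the same pools, 14 rose in males, among them Cldn4 (0.64), Krt7 (0.64) and Epcam (0.45), 12 were not called, and Krt17 (-0.72) and Cldn6 (-0.24) fell as Wfdc2 did. The log2 of their summed signal was 15.73 to 16.19 in male pools and 15.54 to 15.81 in female pools. In pooled tissue, fewer cells of a type and less RNA per cell cannot be told apart. The genes nearest to Wfdc2 over the 12 pairs were Aqp5, a water channel of secretory epithelia, and the transcription factor genes Msx2 and Sox17. Their root mean square differences from Wfdc2 were 0.17, 0.25 and 0.26, and their male/female log2 ratios were -1.13, -0.94 and -0.98. All 3, chosen for nearness to Wfdc2 over these pairs, were closest to 0 in replicate 4 (-0.73, -0.43 and -0.61), as Wfdc2 was.

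Wfdc18 was the member called with DHT, and at 6 h. Its brighter probe had levels of 7.19, 7.19, 7.08 and 7.20 in the DHT pools and 6.73, 6.82, 6.93 and 6.78 in the vehicle pools. The groups did not overlap, and all 8 arrays gave a higher signal with DHT. The log2 ratios were 0.47, 0.37, 0.16 and 0.42, a mean of 0.35 ± 0.14 (SD, n = 4), or 1.28-fold, with an adjusted p of 0.0158 by limma. Replicate 1 had the largest log2 ratio of the 4. In its vehicle pool Eif2s3y (6.02), Ddx3y (5.99) and Kdm5d (6.24) did not exceed the female pools at 17.5 dpc. Uty (6.20) did exceed their 5.89 to 6.05. Xist was at 11.58 in that pool and 11.23 in its DHT pool, both below the 11.96 to 12.60 of those female pools. The mean log2 ratio of 28 epithelial markers was -0.51, -0.41, -0.07 and 0.01 in these pairs, and none of the 28 was called by limma at 6 h (15 had an unadjusted p under 0.05). Of 12 macrophage markers 10 had a positive mean at 6 h, Adgre1 was called (0.36, limma adjusted p = 0.0379), and the mean over the 12 was 0.24, 0.15, 0.07 and 0.08 in these pairs. Adgre1 was thus 8.33% of the 12, beside 1.63% of all genes called at 6 h. The part of either cell type, or of male RNA, in the Wfdc18 difference was not tested.

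The call changed with the probe, the pairs and the processing. The dimmer Wfdc18 probe gave 0.36, 0.09, -0.03 and 0.31, a mean of 0.18 ± 0.18 (SD, n = 4), with overlapping groups and 6 of 8 arrays above 0. Used in place of the brighter probe it was not called (limma adjusted p = 0.183). Leaving out replicate 1, 2 or 4 also ended the call, with adjusted p values of 0.134, 0.1 and 0.0595. So did median centring (0.0611), the scanner's log ratios (0.148) and the 6 h pairs fitted by themselves (0.0546).

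At 12 h the log2 ratios of Wfdc18 lay below 0. The brighter probe had levels of 6.31, 6.30 and 6.23 with DHT and 6.40, 6.41 and 6.35 with vehicle, log2 ratios of -0.09, -0.11 and -0.12. The pool levels did not overlap, but of the 6 arrays 3 lay above 0 and 3 below, according to which pool carried which dye. The mean of -0.11 ± 0.02 (SD, n = 3) was not called (limma adjusted p = 0.566). The 12 h log2 ratio was below the 6 h log2 ratio by a difference of -0.46 that was not called (adjusted p = 0.0748). Between males and females the brighter probe gave -0.14 ± 0.16 (SD, n = 5), with 4 of 5 pairs below 0. It was not called (limma adjusted p = 0.185, unadjusted p = 0.0271), but was called without male/female replicate 3 (adjusted p = 0.0466). The dimmer probe gave 0.00 ± 0.13 and was not called (limma adjusted p = 0.998).

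**Figure D4:**
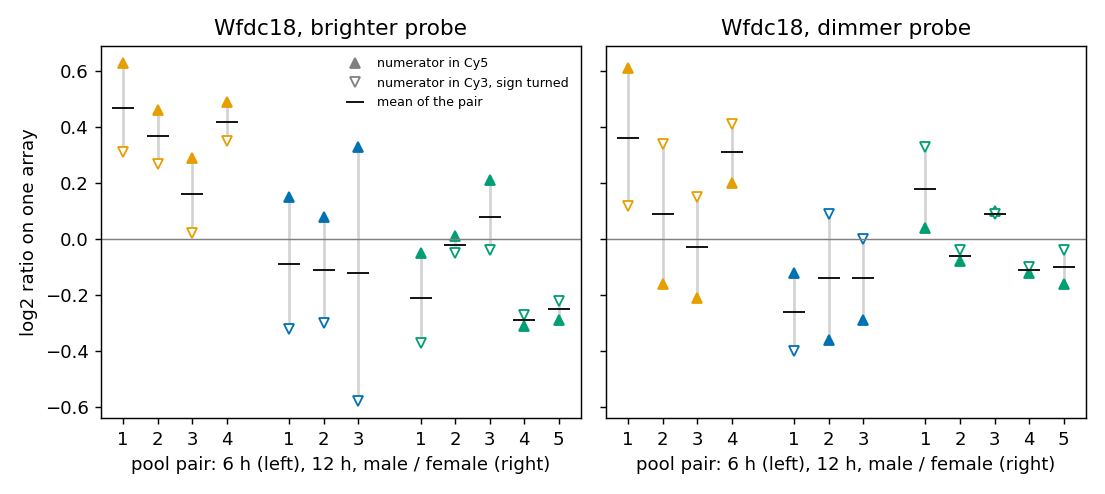
Log2 ratio (y axis) of Wfdc18 on each array by pool pair (x axis, 6 h to the left, 12 h in the middle, males over females to the right) for its brighter and dimmer probe, where triangles mark the 2 dye orientations and dashes the mean of the pair. The 8 arrays at 6 h lie above 0 for the brighter probe, and at 12 h the orientations lie on either side of 0.

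Among 11 other genes of the WAP-domain list that were measured, of 21 listed, 2 rose in males and 1 fell, a share of 27.3% beside 7.58% of all genes. The median log2 ratio of the 11 was 0.03. Wfdc15b had a mean log2 ratio of 0.52 ± 0.38 (SD, n = 5; limma adjusted p = 0.0146) and was higher in 4 of 5 pairs. Wfdc15a was higher in 5 of 5 pairs at 0.36 (adjusted p = 0.00542), and Wfikkn2, which encodes an inhibitor of growth differentiation factors, was lower in 5 of 5 at -0.24 (adjusted p = 0.00834). Wfdc15b and Wfdc15a thus had the opposite sign to Wfdc2. By limma 0 of the 11 were called at 6 h and 0 at 12 h, where 0 and 1 had an unadjusted p under 0.05.

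Pnliprp1 was lower in males, as Wfdc2 was, with the smallest spread of the 4 called genes. The female pools had levels of 8.27, 8.42, 8.40, 8.58 and 8.49 and the male pools 7.05, 7.14, 6.94, 6.93 and 6.99. All 5 male pools lay more than 1 log2 unit below their littermates, and the groups did not overlap. The log2 ratios were -1.22, -1.29, -1.46, -1.65 and -1.51, so that Pnliprp1 fell by 1.42 ± 0.17 (SD, n = 5) in males, or 2.68-fold (limma adjusted p = 0.000128). It stood at rank 5 among all genes by the size of its mean fall in males. The size depended on the processing: with the scanner's log ratios the mean was -2.09, where Wfdc2 had -1.28 and Clu 1.84.

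In the DHT comparisons Pnliprp1 varied from pair to pair. At 6 h the log2 ratios were -0.49, 0.09, -0.28 and 0.20, a mean of -0.12 ± 0.32 (SD, n = 4; limma adjusted p = 0.901). At 12 h they were 0.20, 0.36 and -1.14, a mean of -0.19 ± 0.82 (SD, n = 3; limma adjusted p = 0.772). The value of replicate 3 came with a high vehicle pool: the vehicle levels were 8.13, 7.89 and 9.04 and the DHT levels 8.33, 8.25 and 7.90, and both arrays of that pair showed it, at -1.09 and -1.19. Without replicate 3 the 12 h mean was 0.28, also not called (adjusted p = 0.49).

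A few genes named in other lists, set beside this pair after their values were seen, also stood apart in it. Trf, the serum transferrin gene, had 12 h vehicle levels of 8.09, 8.23 and 9.73 and DHT levels of 8.01, 8.26 and 8.13, and Apoa1, a plasma apolipoprotein gene, had vehicle levels of 6.06, 6.11 and 7.35 and DHT levels of 6.16, 6.31 and 6.41. Both were thus high in the vehicle pool of replicate 3. Col8a1, a collagen gene chosen as near to Pnliprp1, had vehicle levels of 10.58, 10.50 and 10.91 and DHT levels of 10.20, 10.18 and 9.74, apart in both pools of that pair. Other genes of the lists of Trf and Apoa1 did not all follow. In that pair Rbp4 had a log2 ratio of -1.34, but Meltf and Ptgds had 0.02 each, Apoe -0.21 and Vldlr -0.24. The mean of the 28 epithelial markers in it was 0.53. Whether the values of Trf, Apoa1 and Col8a1 share a source with Pnliprp1 was not tested. The male/female log2 ratio of Pnliprp1 was below that at 12 h by a difference of -1.23 (adjusted p = 0.043 by limma), and without replicate 3 at 12 h by -1.70 (adjusted p = 0.00217). That call was lost under 13 of 23 other settings, among them leaving out replicate 1 or 2 at 12 h (adjusted p = 0.2 and 0.16), no background correction (0.0664) and the authors' deposited table (0.0522).

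Acinar cells of the pancreas express Pnliprp1 strongly, and detection of their markers was mixed here. Of 11 listed, Cpa1, Cpb1, Ctrb1, Ctrl and Cel were well above background on 24 of 24 arrays, Prss2 on 23 and Pnlip on 22, while Cela2a reached it on 5, Ptf1a on 3 and Amy2a5 on 0. Of 7 acinar genes measured, 1 was called at 17.5 dpc (14.3%, beside 7.58% of all genes), the carboxypeptidase gene Cpb1, lower in males at -0.24. The log2 of their summed signal was 10.56 to 10.83 in male pools and 10.58 to 10.82 in female pools. Among 10 other lipase genes, 1 was called, Pnliprp2, lower in males in 5 of 5 pairs at -0.21 ± 0.06 (SD, n = 5; limma adjusted p = 0.0146). Its share of the 10, 10%, lies near the 7.58% of all genes. By limma 0 of the 10 were called at 6 h and 0 at 12 h, with 1 and 2 at an unadjusted p under 0.05.

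The genes nearest to Pnliprp1 were less close than those of Clu or Wfdc2. Rspo2, a secreted enhancer of Wnt signalling, Caln1 and Col8a1 had root mean square differences from it of 0.38, 0.39 and 0.40, where Pnliprp1 itself had a root mean square log2 ratio of 1.00. Their mean male/female log2 ratios were -1.04, -1.08 and -1.74. Of 15 mesenchymal and smooth muscle markers 5 also fell in males, 33.3% beside 7.58% of all genes, among them Col1a1 (-0.67) and Myh11 (-0.47). The summed log2 signal of the 15 was 16.54 to 17.65 in male pools and 17.40 to 17.63 in female pools. The part of tissue composition in the Pnliprp1 difference was not tested.

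Ltf and Lcn2 were dim and were not called anywhere. The brighter Ltf probe was well above background in 47 of 48 channel readings and the dimmer one in 30. Between males and females the brighter probe gave log2 ratios of 0.11, 0.10, 0.07, 0.11 and 0.07, a mean of 0.09 ± 0.02 (SD, n = 5), above 0 on 10 of 10 arrays. The adjusted p was 0.5 by limma, and 0.131 with the male/female pairs fitted without the DHT pairs. The groups overlapped at 6.53 to 6.68 in males and 6.45 to 6.57 in females. The dimmer Ltf probe gave 0.02 ± 0.08 (SD, n = 5) between males and females. At 6 h Ltf was at 0.04 ± 0.24 (SD, n = 4) and at 12 h at 0.01 ± 0.11 (SD, n = 3).

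Lcn2 had the weakest signal of the 7 genes relative to background. Its probe was well above background in 16 of 48 channel readings, in 4 of 10 for male pools and in 0 of 10 for female pools, so its female level is only a bound and no fold is given. Pool levels ran from 5.99 to 6.28 in males and from 6.00 to 6.13 in females. The probe reached it in 2 of 8 readings of 6 h vehicle pools and 2 of 6 of 12 h vehicle pools, so the DHT log2 ratios of its pairs are not read further. With a mean dye effect of 0.28 per pair at 6 h, the 2 arrays of each pair lay on opposite sides of 0 there.

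Neutrophils carry lactoferrin and lipocalin 2, and their markers were not called. Of 10 neutrophil genes measured of 13 listed, limma called 0 in each of the 3 comparisons, with 0 at an unadjusted p under 0.05. S100a8, S100a9, Mpo, Prtn3, Ctsg and Chil3 were well above background on 24 of 24 arrays and Mmp9 on 21, while Ngp reached it on 5 and Csf3r on 2. In the 6 h pairs the mean log2 ratio of the 10 neutrophil genes was 0.41, 0.10, -0.02 and -0.01. The brighter Ltf probe had 0.39, -0.04, -0.17 and -0.01. A high replicate 1 was not particular to neutrophil genes: 11 neuron and Schwann cell markers had 0.39, 0.06, 0.04 and -0.02. The 12 macrophage markers had 0.24, 0.15, 0.07 and 0.08, and the 28 epithelial markers -0.51, -0.41, -0.07 and 0.01. The part of any of these cell types in Ltf was not tested. Among 17 other lipocalin and transferrin genes, 1 was higher in males, the melanotransferrin gene Meltf (0.34 ± 0.28, SD, n = 5; limma adjusted p = 0.0219). Ptgds, a lipocalin with prostaglandin D synthase activity, was lower in males in 5 of 5 pairs at -0.24 (adjusted p = 0.00943). Together these were 11.8% of the 17, beside 7.58% of all genes. At 6 h and at 12 h limma called 0 of the 17, with 0 and 4 at an unadjusted p under 0.05.

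Of 19 measured genes for secretions of the adult accessory glands, of 27 listed, 2 rose in males and none fell, with a median log2 ratio of 0.02. That share of 10.5% lies near the 7.58% of all genes. Mmp7, a matrix protease of glandular epithelium, had log2 ratios of 1.25, 1.42, 2.13, 1.66 and 1.53, a mean of 1.60 ± 0.33 (SD, n = 5; limma adjusted p = 5.57e-07). Agr2, a disulfide isomerase of mucus-secreting cells, had 1.26 ± 0.34 (SD, n = 5; limma adjusted p = 0.000147). Limma called 0 of the 19 at 6 h and 0 at 12 h, with 0 and 3 at an unadjusted p under 0.05. Spink1, a secreted trypsin inhibitor, had the largest mean at 6 h, 0.62 ± 1.34 (SD, n = 4), from a single pair at 2.62 while the other 3 lay between -0.17 and 0.07.

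**Figure D5:**
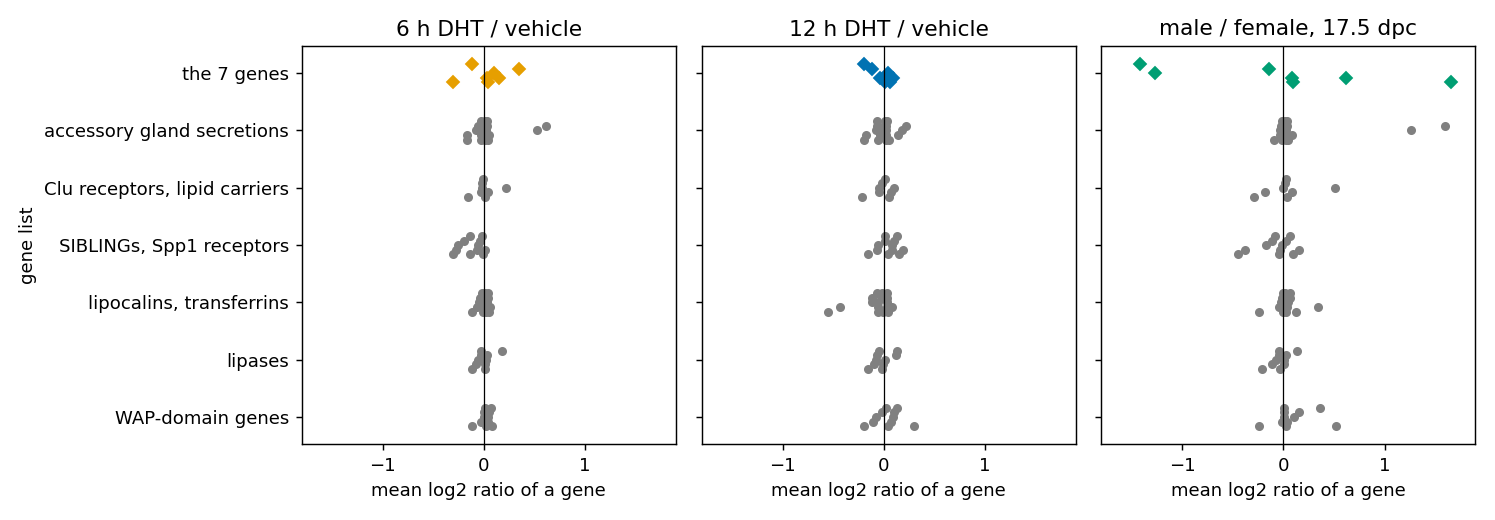
Mean log2 ratio (x axis) of each measured gene of 6 related gene lists and of the 7 genes (y axis) in the 3 comparisons. Between males and females 4 of the 7 genes lie beyond 0.6 in either direction, and outside them the genes beyond 1 are Mmp7 (1.60) and Agr2 (1.26).

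The order of the levels differed between genes. Across comparisons this order cannot be told apart from differences in hybridisation date and embryo age. For Clu, male pools came first with a mean level of 10.38, and the other 5 conditions lay between 8.18 and 8.73, with ranges that overlapped between neighbours except between 12 h vehicle and 6 h DHT. For Wfdc2, female pools at 17.5 dpc came first (13.84), the 4 DHT and vehicle conditions lay between 13.16 and 13.26 with overlapping ranges, and male pools came last (12.57). For Pnliprp1, female pools (8.43) and the 4 DHT and vehicle conditions (7.88 to 8.35) overlapped as neighbours and male pools stood apart at 7.01. Spp1 ran from 9.30 in male pools to 8.68 in female pools with overlap between all neighbours, and Wfdc18 from 7.17 in 6 h DHT pools to 6.28 in 12 h DHT pools. For Ltf (6.37 to 6.59, brighter probe) and Lcn2 (5.99 to 6.16) every pair of neighbours overlapped.

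Set side by side, the male/female log2 ratios differed from the DHT log2 ratios for most of the genes called at 17.5 dpc. Over all genes, 1.65% were called for male/female against 12 h, 6.91% for male/female against 6 h and 0.113% for 12 h against 6 h. Clu, Wfdc2 and Pnliprp1 were called in the first contrast (Pnliprp1 lost its call under 13 of 23 other settings), those genes and Wfdc18 in the second and none of the 7 in the third. For Wfdc18 the male/female log2 ratio was below that at 6 h by a difference of -0.49 (SE 0.08, limma adjusted p = 0.00359), which was -0.18 and not called with the dimmer probe (adjusted p = 0.273). With the first 6 h pair only, the contrast against 6 h was not called for Wfdc2 (adjusted p = 0.0983), Wfdc18 (0.0924) or Pnliprp1 (0.412). The 6 h values rest on vehicle pools of which 3 of 4 carried Y-linked RNA. These contrasts set embryos of different age, treatment and hybridisation date against each other, which cannot be told apart.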

How the data were processed

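Per the file headers, the deposited files are Agilent Feature Extraction 7.5.1 output of 24 two-colour arrays, with background and mean intensity per spot and channel and a log10 ratio, which the authors' scanner software computed. The authors' deposited value table holds log2 ratios per array, with its normalization not given in the sources used here, and its sign follows the turned arrays.

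With limma 3.58.1 in R 4.3.3, intensities were background-corrected (normexp, offset 50), loess-normalized within arrays with control spots at weight 0, turned to DHT over vehicle or male over female, and averaged over the 2 arrays of a pair, giving 12 pairs. Levels came from the same values after Aquantile normalization. Probes well above background on at least 6 of 24 arrays were kept, and the brightest probe stood for a gene. One limma fit of all pairs held the 3 comparisons and their differences. A pair with no value for a gene, as for 42 genes and none of the 7, was left out of that gene's fit. Median signals per array ran from 101.5 to 149.8 (Cy3) and from 93.37 to 136.8 (Cy5), and the number of pairs limits the precision. Nothing says that pools of a group came from separate litters, so p-values speak only of spread between pools. That spread was estimated from the pairs of all 3 comparisons and moderated across genes. It can differ from the SD printed beside a p-value. Between males and females, Ltf had an SD of 0.02 and a standard error of 0.06.

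The members and gene lists were chosen with earlier results of these data known. Named beside them are, per related list and comparison, up to 4 called genes of largest log2 ratio (or else the largest), and the 3 nearest genes over the 12 pairs for members with a root mean square log2 ratio above 0.3. Marker genes are named where they bear on a result. The fit was tested on simulated data. Probe names were updated through RefSeq accessions, symbols and synonyms. The alternatives tried were other centring, background correction, dim-probe filters, probe choices, gene names, the scanner's ratios, the deposited table, each comparison by itself, the 24 arrays with dye and pair terms, no replicate block and each pair left out.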

Additional observations from a re-analysis of the deposited data

Results flagged for a closer look

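In 54 groups of 4 or 5 pools or pairs examined over the 9 probes, 6 had a value far from the others relative to the range of the group. Chance flags about 1 in 20 independent groups. These groups share pools, as the levels and log2 ratios of the same pairs were each examined, so the count is not read against that rate. The male pool of replicate 4 had a Spp1 level of 9.76, above the other male pools. The 6 h DHT pool of replicate 3 had the lowest Wfdc18 level of its group, 7.08. The dimmer Wfdc18 probe stood apart in both pools of the first male/female pair, at 6.79 in the male and 6.60 in the female pool. The dimmer Ltf probe had a 6 h log2 ratio of -0.38 in replicate 4, and the 6 h vehicle pool of replicate 2 had a Lcn2 level of 6.41.

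Differences between comparisons passed the threshold of limma's contrasts in 7 cases. Male/female log2 ratios differed from the 12 h log2 ratios by 1.59 for Clu, -1.31 for Wfdc2 and -1.23 for Pnliprp1. They differed from the 6 h log2 ratios by 1.96 for Clu, -1.37 for Wfdc2, -0.49 for Wfdc18 and -1.30 for Pnliprp1.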

How the results depend on the processing

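The male/female calls of Clu (log2 ratio 1.59 to 1.84), Wfdc2 (-1.38 to -1.19) and Pnliprp1 (-2.09 to -1.27) held under all 24 other settings run, and Spp1 (0.46 to 0.72) under 23 of 24, the exception being the comparison fitted by itself. Wfdc18 at 6 h lost its call under 8 of 25 settings (0.18 to 0.65), and the Pnliprp1 difference between male/female and 12 h under 13 of 23. No called value changed sign. Settings restricted to the first 6 h pair, or using the second probe of a gene, were added after seeing the data. Dim signal limits Lcn2 and the dimmer Ltf probe. The cause of the changes below was not tested.

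Against 403 genes called at 6 h, there were 92 with median centring, 25 with scanner log ratios, 701 with the deposited table, 8 with the comparison fitted by itself, 1275 with 24 arrays and a dye effect, and 1 with the first pair only. Members called at 6 h were 1, but 0 with median centring, scanner log ratios, the comparison by itself, the first pair only or the second probe, and 2 (Clu with Wfdc18) with 24 arrays. Against 71 genes at 12 h there were 21 with median centring, 47 with scanner log ratios, 0 with the deposited table, 0 without background correction, 20 with a stricter dim-probe filter, 26 with the names in the array files, 0 with the comparison by itself, 189 with 24 arrays and 2 with the first 6 h pair only. At the limma counts of 0 the genes at an unadjusted p under 0.05 numbered 2636, 3038 and 3016, in the order given. Against 1873 genes in males over females there were 869 with the comparison by itself. For 12 h against 6 h (28 genes) there were 74 with median centring, 0 with scanner log ratios (2840 at an unadjusted limma p under 0.05), 11 without background correction, 548 with 24 arrays and 0 with the first 6 h pair only (2694). For male/female against 12 h (408) there were 784 with 24 arrays and 186 with the first 6 h pair only. For male/female against 6 h (1709) there were 815 with median centring, 1110 with scanner log ratios, 2729 with 24 arrays and 83 with the first 6 h pair only.

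Replicate numbers pair the pools hybridised together. Without that replicate block, treating pools as unpaired, 36 genes were called at 6 h, 4 at 12 h and 928 in males over females, and 2, 142 and 637 in the 3 contrasts, while the calls of the 7 genes did not change. Leaving out each pair in turn gave 13 to 547 genes at 6 h (lowest without 6 h replicate 2), 0 to 43 at 12 h, 1143 to 1874 in males over females, 0 to 63 for 12 h against 6 h, 135 to 428 for male/female against 12 h and 860 to 1817 for male/female against 6 h. Where such a limma count was 0, 2867 to 3485 genes had an unadjusted p under 0.05. Members called were then 0 to 1 at 6 h, 0 at 12 h and 4 to 5 in males over females (5 without male/female replicate 3, adding Wfdc18).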
